A study of Mus musculus with 15 samples.

Results

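The NR4A family of nuclear receptors, Nr4a1, Nr4a2 and Nr4a3, was followed in mouse plantaris muscle, a fast hindlimb muscle, across training, detraining and age. The 3 genes were chosen by their symbols from the deposited table of 20406 genes, and selected on the measured levels of Nr4a2, which differ between the 9-month groups. Values of the 9-month libraries are therefore described here with no test, and tests are kept to the 6-month libraries. RNA was sequenced from the whole muscle of adult male HSA-GFP mice, in which the human skeletal actin promoter drives an inducible transactivator that switches on a green fluorescent histone 2B in the nuclei of muscle fibres. The transgene system is shared by all groups, the RNA was not limited to the labelled nuclei, and the labels name no background strain. There were 15 libraries in 5 groups of 3.

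The 6M_POW_LD group held trained replicates 4 to 6 of 6 months, going by their titles; their identifiers carry the letters LD, which no source used here explains. The 6M_PoW group held replicates 1 to 3 of mice that had run on progressively weighted wheels (PoWeR) for 8 weeks up to 6 months of age. The 6M_UT group held untrained mice of 6 months. The 9M_PoW+DT group held mice that had trained in the same way and then detrained for 12 weeks, to 9 months of age, and 9M_UT held untrained mice of 9 months. Groups follow the titles, which the table's column headers match. The treatment label went against the title in 9 libraries, naming the other condition in all 6 libraries of 9 months and calling the 3 LD libraries sedentary, so every direction that involves these groups rests on the titles. The library identifiers also changed with age, so age and library series cannot be told apart.

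NR4A proteins are orphan nuclear receptors: their ligand pocket is closed, so their activity is set mainly by how much protein is made. They are immediate early genes, transcribed within minutes to hours of a stimulus and then silenced again, and they bind DNA alone at the NBRE motif or as pairs. Nr4a1 and Nr4a2 can also pair with retinoid X receptors. In skeletal muscle, contraction and beta-adrenergic signals through cyclic AMP and the factor CREB are known inducers, and Nr4a1 and Nr4a3 have been studied in mice and cultured muscle cells as regulators of glucose use, lipid oxidation and fibre growth. Nr4a2 is known best for the development of dopamine neurons.

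The members lie on 3 chromosomes. On mm10, as the deposited table gives them, Nr4a1 (ENSMUSG00000023034) spans chr15:101254269-101274795 on the plus strand. Nr4a2 (ENSMUSG00000026826) spans chr2:57106830-57124003 on the minus strand, and Nr4a3 (ENSMUSG00000028341) spans chr4:48045153-48086447 on the plus strand. No other gene of the GENCODE annotation overlapped any of them, so reads of an antisense or overlapping neighbour do not enter their counts. The 250 bases before each RefSeq start are shown because all 3 carry a cluster of the CREB core motif TGACG, in capitals here where it or its reverse complement CGTCA occurs. They are from RefSeq on GRCm38.p6 and are written 5′ to 3′ on the gene's own strand, covering chr15:101266596-101266845, chr2:57124004-57124253 and chr4:48045055-48045304.
Nr4a1: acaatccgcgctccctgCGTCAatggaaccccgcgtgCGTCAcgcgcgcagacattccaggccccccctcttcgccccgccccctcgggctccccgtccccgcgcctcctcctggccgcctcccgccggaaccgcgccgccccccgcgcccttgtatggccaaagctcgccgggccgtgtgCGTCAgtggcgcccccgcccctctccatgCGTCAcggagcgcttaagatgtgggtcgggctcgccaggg
Nr4a2: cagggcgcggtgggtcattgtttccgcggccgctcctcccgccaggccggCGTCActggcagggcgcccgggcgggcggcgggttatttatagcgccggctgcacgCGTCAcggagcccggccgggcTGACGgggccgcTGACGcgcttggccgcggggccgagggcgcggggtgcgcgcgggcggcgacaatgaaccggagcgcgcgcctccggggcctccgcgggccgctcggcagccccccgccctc
Nr4a3: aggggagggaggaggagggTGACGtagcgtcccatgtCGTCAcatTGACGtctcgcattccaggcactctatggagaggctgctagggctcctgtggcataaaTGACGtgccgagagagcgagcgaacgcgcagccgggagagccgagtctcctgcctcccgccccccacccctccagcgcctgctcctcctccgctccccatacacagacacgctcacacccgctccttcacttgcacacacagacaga

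Each of these 3 windows held 4 such core motifs, counted over both strands. Of the 32851 windows of the same length in the table of mouse promoters, 17.8% held at least 1 and 0.137% held 4 or more. In the Nr4a1 window the sites began 233, 213, 69 and 40 bases before the start, in that of Nr4a2 200, 144, 123 and 111 bases before it, and in that of Nr4a3 231, 213, 205 and 147 bases before it. The windows were rich in G and C, with a GC content of 74.4% for Nr4a1, 80.0% for Nr4a2 and 63.6% for Nr4a3, against a median of 52.4% over all windows. The full palindrome TGACGTCA was found in none of the 3 windows and in 1.55% of all windows. The NBRE octamer AAAGGTCA, the AP-1 site TGACTCA, the E-box CACGTG and the CArG box were also found in none, and occurred in 1.34%, 4.46%, 6.02% and 1.47% of all windows. A TATAAA box was found once, in the Nr4a2 window, as in 12.4% of all windows. All motifs were searched on both strands, and these letters describe the sequence and not a binding event. The RefSeq starts of Nr4a1 and Nr4a3 lie inside the spans of the deposited genes, so other start sites of these genes have other windows.

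Library totals were 23743635 to 26869821 counts in 6M_POW_LD, 20779761 to 26135003 in 6M_PoW, 22678556 to 27688842 in 6M_UT, 20614662 to 22451440 in 9M_PoW+DT and 18865048 to 21693866 in 9M_UT. Markers of muscle fibres dominated every library, with 12 of 12 detected and a summed level of 121164 to 164981 counts per 1000000 counts of the library (CPM). Markers of T and B cells summed to at most 2.29 CPM. In RNA of a whole muscle, fewer cells of a type and less RNA per cell cannot be told apart. Within 6M_UT, replicate 2 stood apart in genes of the circadian clock: Dbp, a clock output gene, was at 115 CPM there and at no more than 42.1 CPM in any other library, and Arntl, the core clock activator, was at 7.43 CPM there and at no less than 21.3 CPM elsewhere. Arntl was picked after its values were seen. Replicate 2 was also the highest of the 9 libraries of 6 months for Nr4a1 and for Nr4a3, so results that rest on it are given with and without it.

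Nr4a1 was by far the most abundant member. Per kilobase of exon it averaged 37.0 CPM over the 15 libraries and ranked second among 38 nuclear receptor genes of the table, after the clock repressor Nr1d1 at 39.5 and before Rxra, the retinoid X receptor and dimer partner, at 27.7. Nr4a3 averaged 2.07 CPM per kilobase and ranked 24, and Nr4a2 averaged 0.671 and ranked 31. The order of Nr4a3 in that ranking moved with the group. It ranked 31 in 6M_POW_LD, 30 in 6M_PoW and 29 in 6M_UT, but 21 in 9M_PoW+DT and 14 in 9M_UT. Its level per kilobase was 2.63% to 11.0% of that of Nr4a1 in the libraries of 9M_PoW+DT and 5.50% to 21.8% in those of 9M_UT, whereas it was 1.07% to 3.20% in the libraries of 6 months.

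Nr4a3 and Nr4a2 had the widest range of group means among the receptors. Among the 34 receptor genes that passed the filter on low counts, in which all 3 members were included, the ratio of the highest to the lowest group mean was 9.07 for Nr4a3, 6.58 for Nr4a2 and 1.64 for Nr4a1. They ranked first, second and sixth, and the next after Nr4a3 and Nr4a2 was the xenobiotic receptor Nr1i3 at 1.87. Since Nr4a2 was chosen for its 9-month difference, its place in this ranking is a description.

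**Figure D1:**
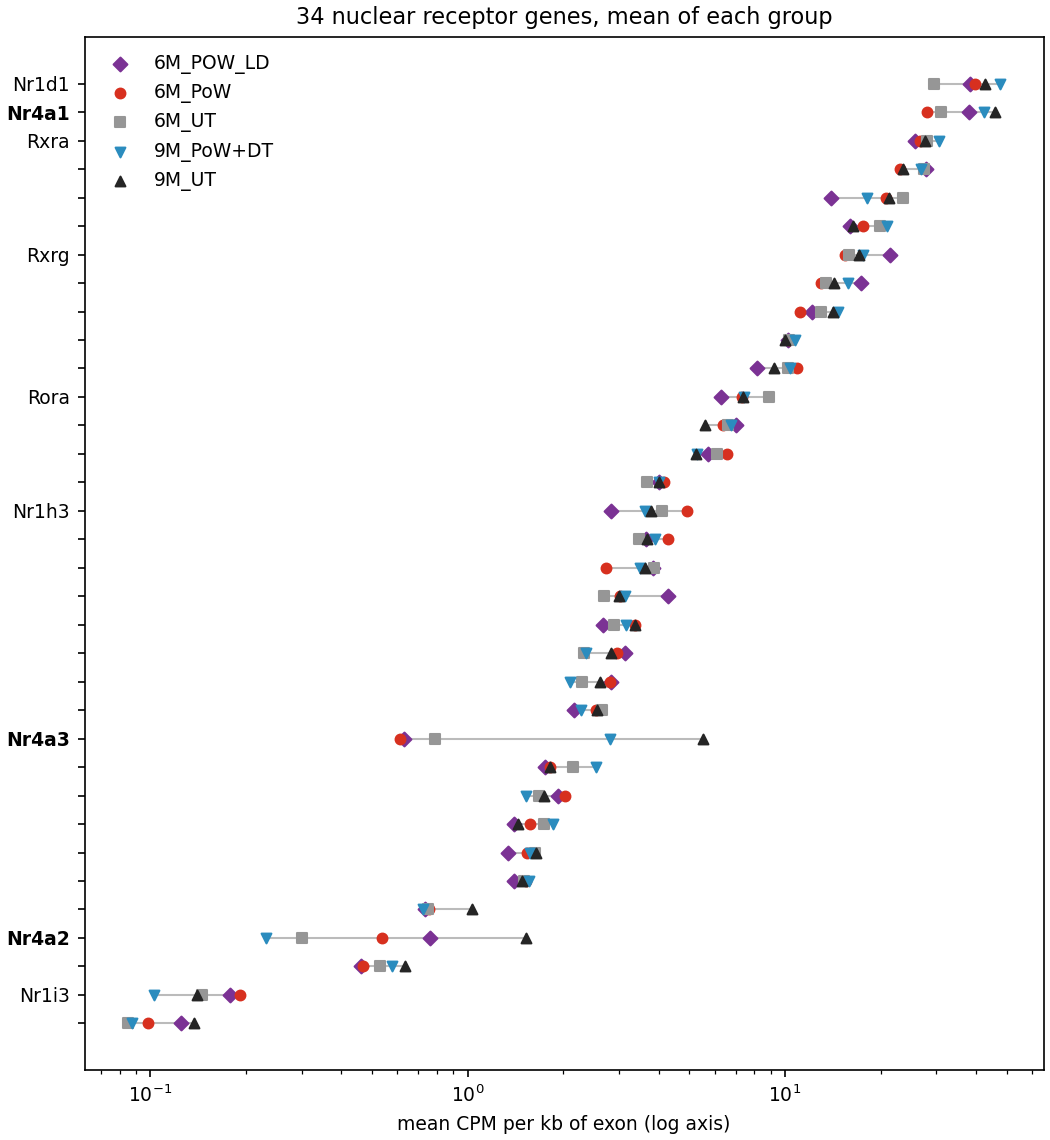
Mean level of each of 34 nuclear receptor genes in CPM per kilobase of exon (log axis) for the 5 groups, 1 symbol per group, with the NR4A genes in bold and only receptors named in the text labelled. The lines of Nr4a3 and Nr4a2 are the longest, with high-to-low ratios of 9.07 and 6.58, and Nr4a1 is second from the top.

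The spread between libraries of the same group was also wide. The biological coefficient of variation, the part of the spread that counting does not account for, was 39.0% for Nr4a1, 30.0% for Nr4a2 and 71.7% for Nr4a3 in the model of all 15 libraries. The median was 14.1% for the other 31 tested receptors, with a highest value of 47.7%. Among the 500 genes nearest in abundance, 98.8% varied less than Nr4a1, 89.2% varied less than Nr4a2 and 99.8% varied less than Nr4a3. The precision of each comparison below is limited by this spread and by 3 libraries per group, more than by depth: Nr4a1 had 1041 to 5174 counts per library and Nr4a3 had 44 to 1413. Nr4a2 had 12 to 142 counts and is the only member near the low end.

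Nr4a1 differed little between groups beside its spread between libraries. In 6M_POW_LD replicates 4 to 6 it stood at 164, 89.9 and 147 CPM, in 6M_PoW replicates 1 to 3 at 120, 127 and 46.8 CPM, and in 6M_UT replicates 1 to 3 at 79.7, 183 and 64.5 CPM. In 9M_PoW+DT it stood at 99.8, 182 and 163 CPM, and in 9M_UT at 146, 150 and 187 CPM. The ranges of all neighbouring groups in the order of means overlapped, and only the 2 ends of that order, 9M_UT and 6M_PoW, were fully apart. The order ran from 6M_PoW at 98.1 ± 44.5 CPM (SD, n = 3) through 6M_UT at 109 ± 64.5, 6M_POW_LD at 134 ± 38.9 and 9M_PoW+DT at 148 ± 42.9 to 9M_UT at 161 ± 22.9. The libraries of 9M_UT were the closest to each other and those of 6M_UT the most scattered, through the high replicate 2.

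Nr4a2, the member with the fewest counts, had the clearest separation of groups. It was chosen for its 9-month difference, so this separation is a description. It stood at 2.23, 2.47 and 4.56 CPM in 6M_POW_LD, at 3.09, 2.33 and 1.12 CPM in 6M_PoW and at 1.33, 1.06 and 1.27 CPM in 6M_UT. It stood at 1.56, 0.563 and 0.693 CPM in 9M_PoW+DT, against 6.11, 5.45 and 6.99 CPM in 9M_UT. The 3 libraries of 9M_UT were the 3 highest of the 15, and 2 of the libraries of 9M_PoW+DT were the 2 lowest. The order of group means ran from 9M_PoW+DT at 0.940 ± 0.544 CPM (SD, n = 3) through 6M_UT at 1.22 ± 0.141, 6M_PoW at 2.18 ± 0.992 and 6M_POW_LD at 3.09 ± 1.28 to 9M_UT at 6.18 ± 0.772. Only the last step, between 6M_POW_LD and 9M_UT, was free of overlap between neighbours. The 6M_UT libraries were close to each other, including replicate 2, in which Nr4a1 and Nr4a3 were high.

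Nr4a3 was higher in the libraries of 9 months, with a wide spread. It stood at 4.93, 2.10 and 4.27 CPM in 6M_POW_LD, at 6.56, 2.33 and 2.07 CPM in 6M_PoW and at 1.89, 9.41 and 2.84 CPM in 6M_UT. In 9M_PoW+DT it stood at 8.90, 34.2 and 7.30 CPM, and in 9M_UT at 13.7, 16.2 and 69.5 CPM. In each 9-month group a single library was several times above the other two, and 6M_UT replicate 2 was the only library of 6 months above any of 9 months. The neighbouring groups in the order of means overlapped at every step. Group means were 3.77 ± 1.48 CPM in 6M_POW_LD, 3.65 ± 2.52 in 6M_PoW, 4.71 ± 4.10 in 6M_UT, 16.8 ± 15.1 in 9M_PoW+DT and 33.1 ± 31.6 in 9M_UT (SD, n = 3 each).

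**Figure D2:**
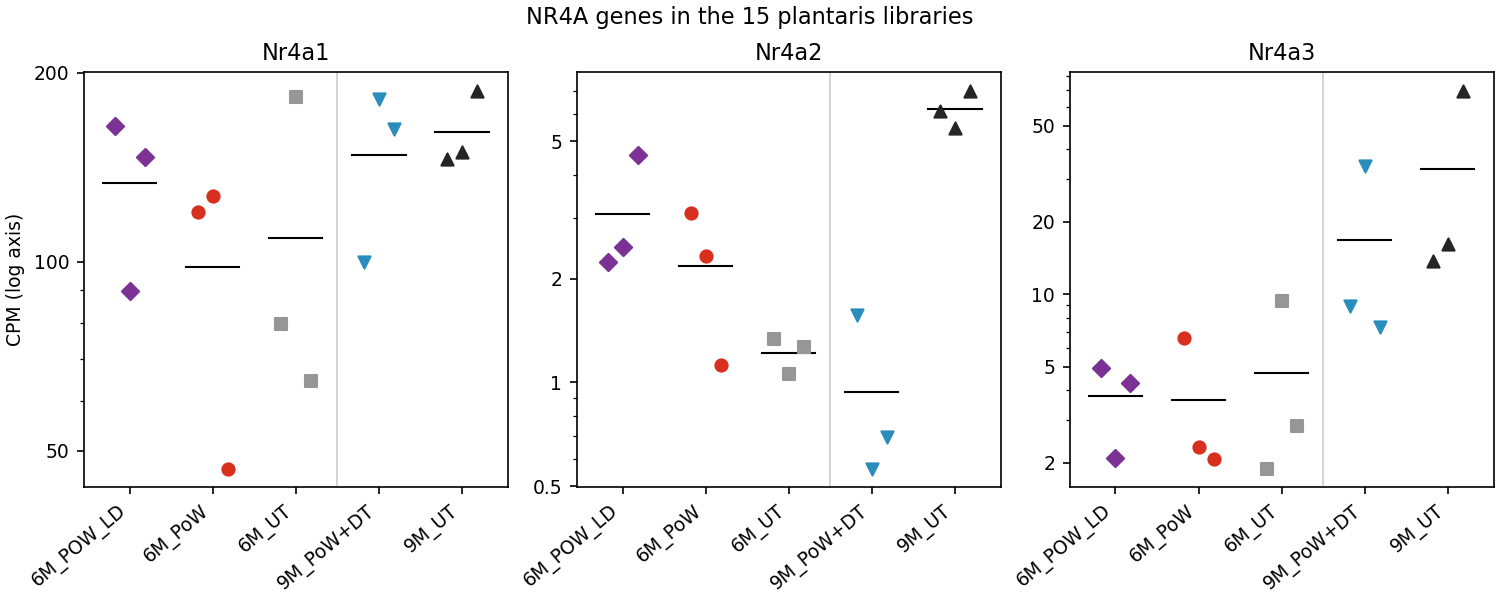
CPM (log axis) of Nr4a1, Nr4a2 and Nr4a3 in each of the 15 libraries, 1 point per library, with the mean of each group of 3 as a bar. In Nr4a2 the 3 libraries of 9M_UT stand at 5.45 to 6.99 CPM, above those of every other group.

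Whether training itself moved the family was asked at 6 months. None of the 3 members passed the test in 6M_PoW against 6M_UT, where 0% of the 14919 genes tested were called by edgeR's quasi-likelihood test at a Benjamini-Hochberg adjusted p under 0.05 (1455 had an unadjusted p under 0.05, and DESeq2 called 112). Nr4a2 had the largest estimate, a log2 fold change of 0.84 ± 0.38 (SE, 95% interval 0.03 to 1.65) with an edgeR adjusted p of 0.499, and it was higher than all of 6M_UT in 2 of 3 trained libraries. Nr4a1 had a log2 fold change of -0.15 ± 0.49 (interval -1.28 to 0.97, edgeR adjusted p 0.947). Nr4a3 had -0.41 ± 1.05 (interval -2.82 to 2.00, edgeR adjusted p 0.934). Both of these estimates depended on 6M_UT replicate 2: without it, the log2 fold change was 0.44 for Nr4a1 and 0.61 for Nr4a3, with edgeR adjusted p of 0.775 and 0.907, while Nr4a2 gave 0.74. The intervals allow differences of more than 1 log2 unit in some direction for each member, so a p that misses the threshold does not show that trained and untrained muscles were alike.

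The second set of libraries titled as trained was compared with the same untrained libraries. Nr4a2 had a log2 fold change of 1.34 ± 0.39 (SE, interval 0.52 to 2.16) in 6M_POW_LD against 6M_UT, and its groups did not overlap, which was the case for 12.6% of the 15181 genes tested in that direction. Its unadjusted p was 0.00286 and its edgeR adjusted p over all genes was 0.0540, so it was not called at 0.05, while 4.99% of genes were. That call lies at the edge of the threshold. DESeq2 gave an adjusted p of 0.0180 and edgeR with no filter on low counts 0.0469, and over the 15 edgeR fits that each left out 1 library the adjusted p ran from 0.0349 to 0.236. The 2 of these fits under 0.05 left out 6M_PoW replicate 3 (0.0363) or 9M_PoW+DT replicate 1 (0.0349), libraries that belong to neither group. Nr4a1 had a log2 fold change of 0.29 ± 0.47 (interval -0.75 to 1.33, edgeR adjusted p 0.784), and Nr4a3 had -0.36 ± 0.96 (interval -2.48 to 1.77, edgeR adjusted p 0.881). Without 6M_UT replicate 2 these were 0.89 for Nr4a1 and 0.66 for Nr4a3, neither called by edgeR (adjusted p 0.313 and 0.801), and Nr4a2 was 1.24 with an adjusted p of 0.124.

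Between the 2 sets of libraries titled as trained, none of the members passed the edgeR test, while 2.4% of 15181 genes did. In 6M_POW_LD against 6M_PoW the log2 fold change was 0.45 ± 0.47 (SE, interval -0.60 to 1.49) for Nr4a1, 0.50 ± 0.37 (interval -0.28 to 1.28) for Nr4a2 and 0.05 ± 0.99 (interval -2.14 to 2.24) for Nr4a3. The edgeR adjusted p values were 0.768, 0.630 and 0.992, in the same order of genes. The libraries of both sets overlapped for every member. The 6M_POW_LD and 6M_PoW comparisons share the same 3 untrained libraries and are not independent of each other.

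Markers of several other cell types also differed between the libraries of 6 months. The 12 macrophage and leukocyte markers, all detected, summed to 75.4 to 89.1 CPM in 6M_POW_LD and 70.3 to 90.7 CPM in 6M_PoW, against 49.8 to 57.3 CPM in 6M_UT, with no overlap. For fibro-adipogenic progenitors, which build connective tissue, 10 of 10 markers were detected and summed to 1121 to 1287 CPM and 1099 to 1285 CPM in these groups, against 891 to 1015 CPM in 6M_UT. Endothelial markers, 12 of 12 detected, summed to 378 to 450 CPM in 6M_POW_LD and 403 to 445 CPM in 6M_PoW, against 330 to 380 CPM in 6M_UT, where the highest library overlapped the lowest of 6M_POW_LD. Schwann cell markers, 8 of 8 detected, summed to 69.0, 180 and 72.9 CPM in 6M_POW_LD and 46.0 to 69.3 CPM in 6M_PoW, against 52.1 to 61.3 CPM in 6M_UT. The 180 CPM is a single library, and 6M_PoW overlapped 6M_UT. Mural cell markers, 8 of 8 detected, summed to 424 to 457 CPM in 6M_POW_LD and 428 to 464 CPM in 6M_PoW. In 6M_UT they summed to 363 to 373 CPM, with no overlap. Satellite cell markers, 8 of 8 detected, summed to 55.3 to 79.6 CPM in 6M_POW_LD and 48.1 to 59.5 CPM in 6M_PoW. In 6M_UT they summed to 46.7 to 48.8 CPM, which overlapped 6M_PoW only. The part of these cells in the Nr4a2 levels was not tested.

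**Figure D3:**
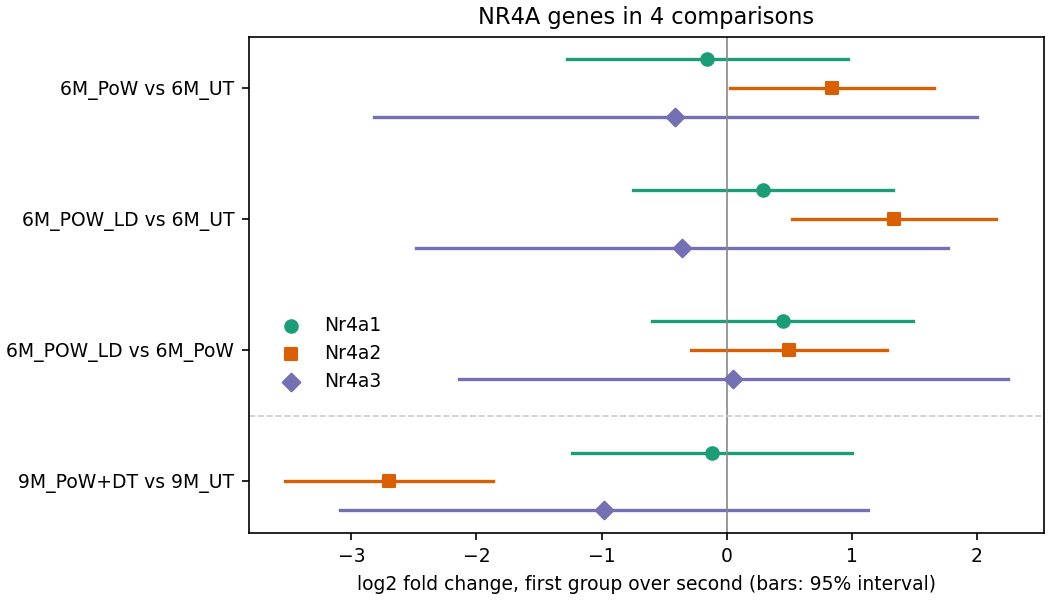
Log2 fold changes of the 3 NR4A genes in 4 comparisons, the group named first over the second, with bars for the 95% interval from edgeR. The interval of Nr4a2 in 6M_POW_LD against 6M_UT runs from 0.52 to 2.16, and the values below the dashed line, of 9M_PoW+DT against 9M_UT, are a description because that comparison was used to choose the genes.

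At 9 months, the comparison of detrained with untrained mice addressed what remained of training after 12 weeks without it. Nr4a2 was lower in all 3 libraries of 9M_PoW+DT than in all 3 of 9M_UT, with a log2 fold change of -2.70 ± 0.39 (SE). As a fitted fold, 9M_UT stood 6.50-fold above 9M_PoW+DT. Nr4a1 had a log2 fold change of -0.12 ± 0.49 and Nr4a3 of -0.98 ± 0.92, and the groups of both overlapped. As a background over all 14919 genes, 0.0201% were called by edgeR in this comparison and 5.7% had groups that did not overlap in this direction. Nothing about Nr4a2 is read from these shares, because this contrast was used to choose it. The value of Nr4a2 was between -3.29 and -2.44 over the fits that each left out 1 library. That of Nr4a3 rested on a few libraries, at 0.17 without 9M_UT replicate 3 and at -2.03 without 9M_PoW+DT replicate 2. If the treatment label and not the title named the 9-month groups, all signs would be the other way round, with 2.70 for Nr4a2.

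Against the younger mice, both 9-month groups had a higher mean of Nr4a3, and they lay on opposite sides in Nr4a2. Set against 6M_UT, 9M_UT had log2 fold changes of 0.56 ± 0.49 for Nr4a1, 2.34 ± 0.38 for Nr4a2 and 2.79 ± 1.0 for Nr4a3. The groups did not overlap for Nr4a2 and Nr4a3, as for 5.34% of genes in that direction, and 2 of 14919 genes, or 0.0134%, were called. For Nr4a1 the overlap came from 6M_UT replicate 2, since the other two libraries of 6M_UT were below all of 9M_UT. Set against 6M_PoW, 9M_PoW+DT had 0.59 ± 0.49 for Nr4a1, -1.20 ± 0.40 for Nr4a2 and 2.22 ± 1.02 for Nr4a3, with no overlap for Nr4a3, as for 9.53% of genes in that direction, and 0.295% of genes called. Set against 6M_UT, 9M_PoW+DT had -0.36 ± 0.41 for Nr4a2 and 1.80 ± 0.99 for Nr4a3, and both overlapped. The group whose Nr4a2 level stood apart from all others was 9M_UT. These comparisons share libraries with the one that chose the genes, and age cannot be told apart from library series.

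How the members varied together from library to library depended in part on 6M_UT replicate 2. The choice of genes did not use the 9 libraries of 6 months. Over these, Nr4a1 and Nr4a3 gave a Pearson's r of 0.738 between their log2 CPM and a Spearman's rho of 0.750. The exact two-sided permutation p was 0.0250 for r and 0.0255 for rho, and 0.0750 and 0.0765 after Benjamini-Hochberg adjustment over the 3 pairs of members, so the relation did not pass 0.05 after adjustment. Without the 2 libraries farthest from the median of Nr4a1 (6M_PoW replicate 3 and 6M_UT replicate 3), r was 0.810, and without 6M_UT replicate 2 it was 0.649. Within the 6 libraries of 6M_PoW and 6M_UT r was 0.740, and within the 6 libraries of 9 months it was 0.664. Nr4a1 and Nr4a2 gave r of 0.447 and rho of 0.183 over the same 9 libraries (exact permutation p 0.226 and 0.644, adjusted 0.340 and 0.843). Leaving out the 2 farthest libraries took that r to 0.0187, whereas leaving out 6M_UT replicate 2 took it to 0.819, above the 0.649 of Nr4a1 and Nr4a3, so the order of the pairs rests on that library. Nr4a2 and Nr4a3 gave r of 0.138 and rho of 0.0833 (exact permutation p 0.722 and 0.843, adjusted 0.722 and 0.843), with 0.604 without the 2 libraries farthest for Nr4a2 and 0.627 without 6M_UT replicate 2.

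The same pattern over all 15 libraries is given as a description. Nr4a1 and Nr4a3 had r of 0.70, higher than the r of 99.8% of all genes with Nr4a1, and r of 0.66 once each group's mean was taken out. Nr4a2 had r of 0.24 with Nr4a1 and 0.26 with Nr4a3, and 0.12 and 0.04 about the group means. Over the 12 libraries without 9M_UT, r of Nr4a2 was -0.03 with Nr4a1 and -0.45 with Nr4a3. Over the same 12 libraries r of Nr4a1 and Nr4a3 was 0.68. The ratio of Nr4a3 to Nr4a2, per kilobase, showed how differently they moved at 9 months: it was 3.86, 41.1 and 7.14 in 9M_PoW+DT, against 1.52, 2.01 and 6.75 in 9M_UT. In 6M_POW_LD it was 0.575 to 1.5, in 6M_PoW 0.678 to 1.44 and in 6M_UT 0.962 to 6.01.

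Genes with the most similar profiles were named by the highest Pearson's r over the 15 libraries among 15180 genes, as a description of libraries that share their depth and groups. For Nr4a2 these were Fosl2, an AP-1 subunit (r 0.871), the noncoding Srrm4os (0.838), Map3k14, the kinase of noncanonical NF-kB signalling (0.836), Rab22a, an endosomal GTPase (0.831), and Sik1, a cyclic AMP-induced kinase (0.815). The likeness of Nr4a2 and Fosl2 was mainly one of group levels, with r of 0.258 about the group means. For Nr4a1 they were Wee1, a cell cycle kinase gene under clock control (0.834), Smad3, a transducer of TGF-beta signals (0.834, with a Spearman's rho of 0.479), Uty, a Y-linked demethylase (0.807), Ncoa3, a nuclear receptor coactivator (0.804), and Cdc37, a chaperone partner of kinases (0.801). Wee1 stayed alike about the group means, with r of 0.873. For Nr4a3 they were Slc6a18 (0.853), Cdv3-ps (0.829), Thbd, the endothelial thrombin receptor thrombomodulin (0.816), Snapin (0.814) and Rps18-ps6 (0.804). Slc6a18 had at most 0.689 CPM and 2 of the others are pseudogenes. Thbd stayed alike about the group means, with r of 0.920.

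The levels of Fosl2 are given for each library. Its likeness to Nr4a2 lay mainly in the group levels, with r of 0.871 over all libraries and 0.258 about the group means. The 9-month values on which Nr4a2 was chosen are part of that likeness. Fosl2 stood at 22.6, 20.7 and 22.5 CPM in 6M_POW_LD, at 25.0, 21.9 and 15.8 CPM in 6M_PoW and at 17.4, 14.9 and 14.4 CPM in 6M_UT. It stood at 10.7, 12.4 and 14.0 CPM in 9M_PoW+DT, against 24.0, 36.4 and 37.4 CPM in 9M_UT. As with Nr4a2, the untrained 9-month libraries were well above the detrained ones with no overlap, and the lowest trained library of 6 months was 6M_PoW replicate 3. In 6M_POW_LD against 6M_UT Fosl2 had a log2 fold change of 0.50 ± 0.17 and was not called (edgeR adjusted p 0.112).

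**Figure D4:**
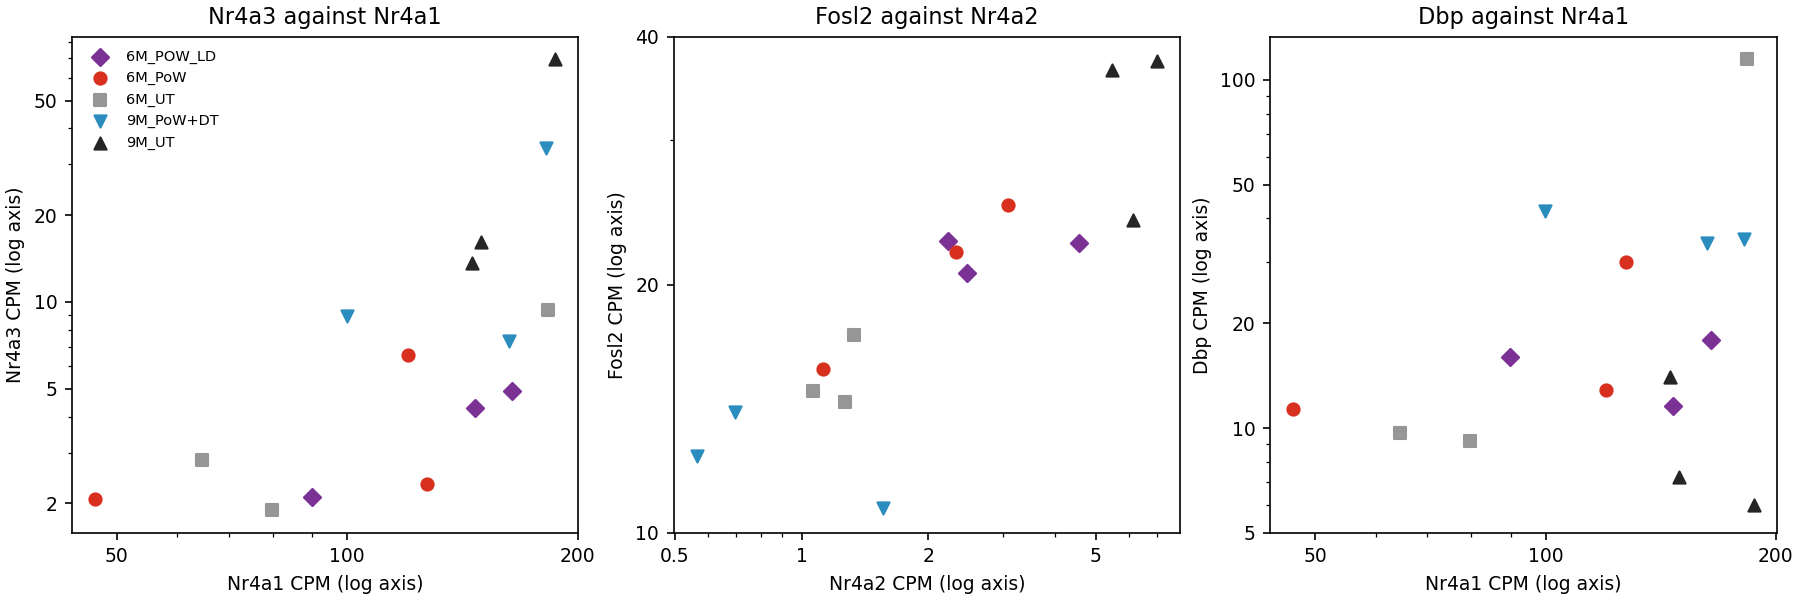
CPM of a pair of genes in each of the 15 libraries on log axes, with a symbol for each group: Nr4a3 against Nr4a1, Fosl2 against Nr4a2, and Dbp against Nr4a1. For Nr4a3 and Nr4a1 r is 0.738 over the 9 libraries of 6 months and 0.664 over the 6 libraries of 9 months, and 6M_UT replicate 2 stands alone at 115 CPM of Dbp.

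Other immediate early genes were set beside the NR4A genes, from a list of 30 of which 28 were tested. At 6 months they did not move one way. In 6M_PoW against 6M_UT 12 lay above 0 and 16 below, where the list's median log2 fold change was -0.17, with 0.00 for all genes, and none was called by edgeR. In 6M_POW_LD against 6M_UT 14 lay above and 14 below, with a median of 0.05. The call there was Jund, an AP-1 subunit, which rose by 0.43 ± 0.11 on the log2 scale, with 71.7 ± 9.53 CPM in 6M_POW_LD and 53.0 ± 6.66 CPM in 6M_UT (edgeR adjusted p 0.0238). That call was lost without 6M_POW_LD replicate 6 (0.121) or 6M_UT replicate 3 (0.0976). Atf3, a stress-induced repressor, had 0.89 ± 0.33 (edgeR adjusted p 0.155), and Ier3, a survival factor, had -1.02 ± 0.31 (edgeR adjusted p 0.0638). Neither was called by edgeR, while DESeq2 called both (adjusted p 0.0451 for Atf3 and 0.0259 for Ier3). The 28 genes ran from -1.91 to 0.89, so the 1.34 of Nr4a2 lay above them all.

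At 9 months most of these genes lay on the same side as Nr4a2, as a description. In 9M_PoW+DT against 9M_UT 25 of the 28 were below 0, with a median of -0.57 beside 0.00 over all genes, and in 9M_UT against 6M_UT 24 of 28 were above 0 with a median of 0.46. Both comparisons share the 9M_UT libraries, whose mean log2 CPM over the list was 3.40 to 3.58, above the 2.52 to 3.24 of the other 12 libraries. The largest values in 9M_PoW+DT against 9M_UT were -1.78 ± 0.27 for Atf3, -1.47 ± 0.64 for Klf10, a TGF-beta-induced factor, -1.40 ± 0.19 for Fosl2 and -1.39 ± 0.37 for Klf2, an endothelial and T cell factor. Atf3 averaged 7.20 ± 1.96 CPM in 9M_PoW+DT and 24.6 ± 10.5 CPM in 9M_UT. The Nr4a2 value of -2.70 was below all of them, and the value of Nr4a1, -0.12, was nearer 0 than the list's median.

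Genes known as CREB targets, 16 of 16 tested, were the second list. Fos, Fosb, Junb and Dusp1 were in both lists, so the 2 lists are not independent of each other. In 6M_PoW against 6M_UT 10 lay above 0 and 6 below, with a median of 0.25, and in 6M_POW_LD against 6M_UT 7 lay above and 9 below, with a median of -0.16, and edgeR called none in either. Rgs2, a brake on G protein signals, had the smallest p in 6M_PoW, with 0.96 ± 0.33 (edgeR adjusted p 0.363), and Pde10a, which degrades cyclic nucleotides, had 0.81 ± 0.28 (edgeR adjusted p 0.365). In 9M_PoW+DT against 9M_UT 12 of the 16 were below 0, with a median of -0.53. The largest values were -1.63 ± 0.33 for Irs2, an insulin signalling adaptor, -1.36 ± 0.41 for Sik1, -1.16 ± 0.58 for Nfil3, a clock-linked repressor, and -1.09 ± 0.56 for Fosb, an AP-1 subunit. Irs2 averaged 39.4 ± 8.52 CPM in 9M_PoW+DT and 122 ± 38.8 CPM in 9M_UT.

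**Figure D5:**
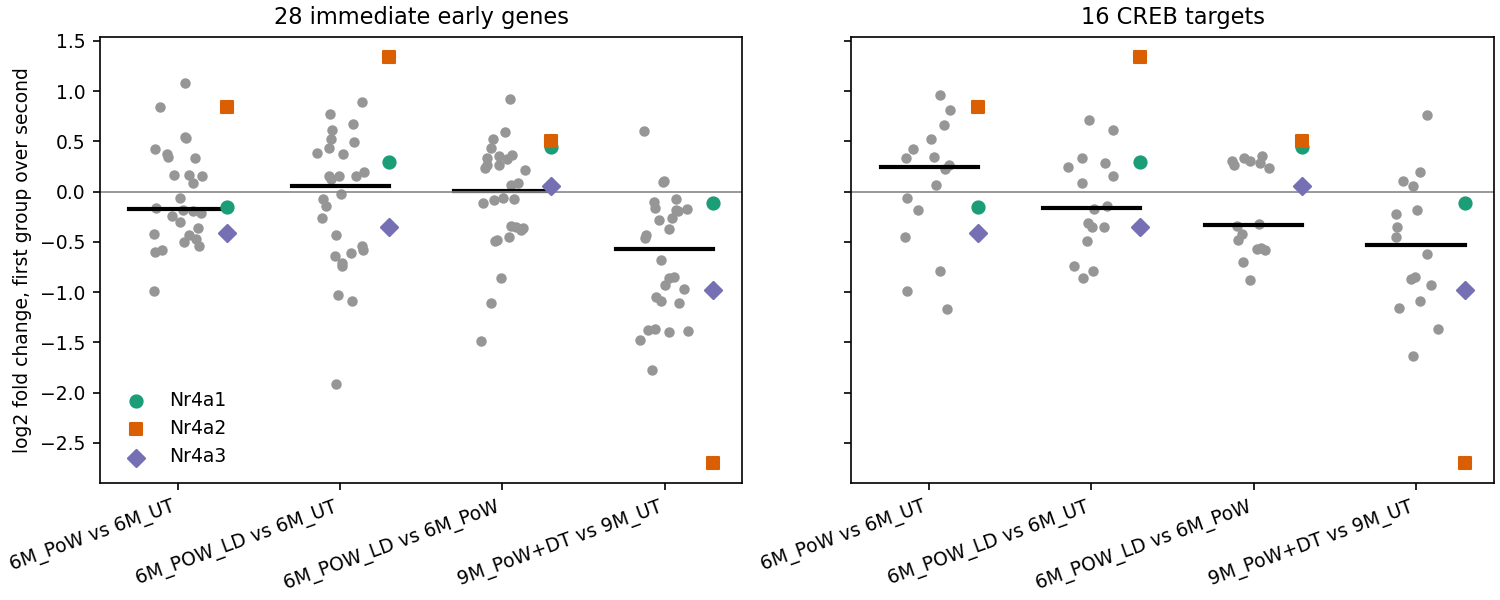
Log2 fold changes of 28 immediate early genes (left) and 16 CREB targets (right), the NR4A genes not counted, in 4 comparisons, the group named first over the second. Each grey point is a gene, bars are medians and the NR4A genes are coloured. Nr4a2 lies at 1.34 in 6M_POW_LD against 6M_UT and at -2.70 in 9M_PoW+DT against 9M_UT, outside the grey points in both. The value of -2.70 is a description, because Nr4a2 was chosen on that comparison.

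Upstream of the receptors, 29 genes of beta-adrenergic, calcium and CREB signalling were tested, of 31 listed. In 6M_PoW against 6M_UT 12 lay above 0 and 17 below, and edgeR called none. In 6M_POW_LD against 6M_UT 16 lay above and 13 below, and 3 passed, beside the 4.99% of all genes called there. Prkaca, the catalytic subunit of protein kinase A, rose by 0.41 ± 0.07 on the log2 scale, with 177 ± 2.60 CPM in 6M_POW_LD and 133 ± 7.41 CPM in 6M_UT (edgeR adjusted p 0.00176). Srf, a serum response factor that drives muscle and early genes, rose by 0.30 ± 0.08 (edgeR adjusted p 0.0313), and Gnas, the stimulatory G protein, fell by 0.29 ± 0.07 on the log2 scale (edgeR adjusted p 0.0173). Gnas lost its call when either 6M_POW_LD replicate 4 or 6M_UT replicate 3 was dropped (adjusted p 0.0738 and 0.0527), and Srf without any of 6M_POW_LD replicates 4 to 6, 6M_UT replicate 1 or 6M_UT replicate 3 (0.0560 to 0.143). In 9M_PoW+DT against 9M_UT, Rcan1, an inhibitor and target of calcineurin, had a log2 fold change of -0.56 ± 0.19, and Crtc3, a CREB coactivator, had -0.38 ± 0.14.

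Among the partners and cofactors of NR4A proteins, 14 of 14 tested, edgeR called none in 6M_PoW against 6M_UT and 2 in 6M_POW_LD against 6M_UT, where 4 lay above 0 and 10 below and 4.99% of all genes were called. Rxrg, the retinoid X receptor of muscle, rose by 0.43 ± 0.08 on the log2 scale, with 49.3 ± 4.20 CPM in 6M_POW_LD and 36.7 ± 1.20 CPM in 6M_UT (edgeR adjusted p 0.00587). Ncoa1, a coactivator of nuclear receptors, rose by 0.43 ± 0.09 (edgeR adjusted p 0.00875). The other trained set did not share the Rxrg rise: 6M_PoW stood at 35.6 ± 1.73 CPM, with -0.04 ± 0.08 against 6M_UT. In 6M_POW_LD against 6M_PoW, Rxrg had a log2 fold change of 0.47 ± 0.08 (edgeR adjusted p 0.00428). In 9M_PoW+DT against 9M_UT 8 of 14 were above 0, and the coactivator Trip6 had -0.40 ± 0.27. In the receptor superfamily without the NR4A genes, 31 genes were tested of 46 listed and 35 in the table. Of these, edgeR called 2 higher and 4 lower in 6M_POW_LD against 6M_UT, again beside 4.99% of all genes. Rxrg is in this list and in that of the partners, so its call is counted in both. Nr1h3, an oxysterol receptor, fell by 0.53 ± 0.14 on the log2 scale (edgeR adjusted p 0.0317) and Rora, a clock-linked receptor, by 0.51 ± 0.13 (0.0320). Without 6M_POW_LD replicate 5 or replicate 6 edgeR called 2 genes of this list, and without 6M_UT replicate 1 it called 3. Nr1h3 and Rora lost their calls in each of these fits (adjusted p 0.0810 to 0.130), and Nr1h3 also without 6M_UT replicate 3 (0.115). In 6M_PoW against 6M_UT, Nr1h3 lay on the other side of 0, at 0.27 ± 0.13, and Rora on the same side, at -0.28 ± 0.13. In 6M_POW_LD against 6M_PoW, Nr1h3 had -0.79 ± 0.13 (edgeR adjusted p 0.00333) and Rora -0.23 ± 0.13 (0.478).

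The muscle genes studied as NR4A targets, a list of 20 glycolytic, lipid and growth genes from mice and cultured muscle cells, were all tested. In 6M_PoW against 6M_UT 5 lay above 0 and 15 below, and edgeR called none. In 6M_POW_LD against 6M_UT 9 lay above and 11 below, with 4 called higher and 2 called lower, where 4.99% of all genes were called. These counts describe the list and were not tested as a set. Igf1, a growth factor of muscle, rose by 1.32 ± 0.22 on the log2 scale, with 11.6 ± 2.01 CPM in 6M_POW_LD and 4.65 ± 0.860 CPM in 6M_UT (edgeR adjusted p 0.00186). Cav3, the caveolin of muscle fibres, rose by 0.50 ± 0.10 (edgeR adjusted p 0.00529). Fbp2, the fructose bisphosphatase of muscle, fell by 1.47 ± 0.21 on the log2 scale, with 8.92 ± 1.76 CPM in 6M_POW_LD and 24.8 ± 2.23 CPM in 6M_UT (edgeR adjusted p 0.00131). Pfkm, the phosphofructokinase of muscle, fell by 0.36 ± 0.07 (edgeR adjusted p 0.00347). This list had 12 genes above 0 and 8 below in 9M_PoW+DT against 9M_UT, with a median of 0.07 and values from 0.28 ± 0.25 for Prkag3 to 0.69 ± 0.44 for Ucp2 among those named by the rule.

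Since NR4A genes and the clock are both sensitive to the hour of sampling, which no source used here gives, 18 clock genes were set beside them. In 6M_POW_LD against 6M_UT edgeR called Npas2, a clock activator, higher (1.66 ± 0.44, adjusted p 0.0360). Leaving out 6M_POW_LD replicate 4, 5 or 6, 9M_PoW+DT replicate 2 or 6M_UT replicate 3 each ended the Npas2 call (adjusted p 0.0504 to 0.113). In 6M_PoW against 6M_UT no clock gene was called, but Per2, a clock repressor, had -2.17 ± 0.72 (edgeR adjusted p 0.386). That value rested on single untrained libraries, at -1.08 (edgeR adjusted p 0.499) without 6M_UT replicate 2 and at -2.66 (0.0431) without 6M_UT replicate 3. In the 9-month libraries Dbp stood at 42.1, 35.0 and 33.9 CPM in 9M_PoW+DT, against 14.0, 7.21 and 6.00 CPM in 9M_UT. Arntl, which runs opposite to Dbp over the day, stood at 21.3, 24.9 and 25.3 CPM in 9M_PoW+DT, against 36.3, 44.9 and 39.8 CPM in 9M_UT. The 9-month groups did not overlap for Dbp and Arntl, nor for Per2, Per3, Nr1d2, Npas2 and Nfil3. Dbp, Per2, Per3 and Nr1d2 were higher in 9M_PoW+DT. Arntl, Npas2 and Nfil3 were lower there, as were 5.7% of all 14919 genes without overlap. The share of all genes higher without overlap is not given here, so nothing is read from how many clock genes were apart. Per2 stood at 6.52 to 10.4 CPM in 9M_PoW+DT and 4.01 to 5.51 CPM in 9M_UT, and Npas2 at 1.20 to 1.30 CPM and 2.51 to 3.55 CPM. The groups overlapped for Nr1d1 and for Per1, at 14.98 to 122 CPM in 9M_PoW+DT and 40.7 to 82.5 CPM in 9M_UT. Per1, Per3, Nr1d1 and Nr1d2 were picked after their values were seen. Of the 18 clock genes 12 lay above 0 and 6 below in this comparison, with a median log2 fold change of 0.15, and the part of the clock in the Nr4a2 difference was not tested. Of the cell type markers, the 12 endothelial genes summed to 303 to 359 CPM in 9M_PoW+DT, against 366 to 390 CPM in 9M_UT. Neutrophil markers, with no counts for Mpo, summed to 0.174 to 0.516 CPM in 9M_PoW+DT, against 0.980 to 1.18 CPM in 9M_UT. Of the 6 listed only 1 passed the filter on low counts, so these sums lie near the floor. Macrophage and leukocyte markers overlapped at 64.1 to 79.4 CPM in 9M_PoW+DT and 65.7 to 73.9 CPM in 9M_UT. Adipocyte markers overlapped at 100 to 173 CPM and 111 to 117 CPM, with 5 of 7 above 0 in log2 fold change. Schwann cell markers overlapped at 47.4 to 67.1 CPM and 42.9 to 60.7 CPM, with 8 of 8 above 0. The part of these cells was not tested either.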

How the data were processed

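Expected counts per gene for 20406 genes in 15 plantaris libraries were deposited by the authors as 1 table. Per the submitters' processing notes, STAR 2.7.3a, Partek, DESeq2 and the mm10 build were used, in roles the notes do not state. How reads were counted, and whether by strand, is not given in the sources. From 26.1% to 31.2% of the values in a library differed from a whole number by more than 1e-06, and every listed gene had at least 10 counts summed over libraries.

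Expected counts were rounded and fitted with edgeR 4.0.16 (R 4.3.3): filterByExpr, trimmed mean of M values, robust quasi-likelihood with 1 mean per group, and Benjamini-Hochberg adjustment over all genes tested. 6M_PoW against 6M_UT and the 9-month comparisons came from 12 libraries (14919 genes), and those with 6M_POW_LD from all 15 (15181 genes). CPM are counts per effective total of 1000000 from the fit of 15 libraries. Likeness used log2 CPM with a prior count of 2, and per-length levels used the exon length of GENCODE M21 genes. Standard errors are the log2 fold change over the root of the test statistic. The analysis was tested on simulated data.

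The members, the lists and the rule for named genes were chosen with earlier results of these data known. The rule took, from each list, up to 4 genes with the largest absolute change in 9M_PoW+DT against 9M_UT and up to 4 with the smallest p in the 6-month comparisons against 6M_UT, and the 5 genes most alike each member with an official symbol; some genes the rule names are not reported here. Nothing in the labels says that replicates were separate mice, so the p-values speak only of the spread among these samples, which may be technical. No 2 libraries were identical, and r between libraries was 0.958 to 0.979. Alternatives were DESeq2 1.42.0, other size factors, other filters, leaving out each library, fits of the 2 groups alone, the replicate number as a block and other readings of the treatment label.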

Additional observations from a re-analysis of the deposited data

Results flagged for a closer look

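Nr4a2 had estimates of opposite sign in the pair of training-related contrasts, -2.70 in 9M_PoW+DT against 9M_UT and 0.84 in 6M_PoW against 6M_UT. The 6-month estimate was not called (edgeR adjusted p 0.499) and its groups overlapped. The 9-month minus the 6-month log2 fold change was -3.54 ± 0.55 (SE), and it is listed here for the size of that gap between the 2 ages. The gap contains the 9-month values on which Nr4a2 was chosen, so it is a description, with no test, and supports nothing. The same gap was 0.04 ± 0.69 for Nr4a1 and -0.57 ± 1.40 for Nr4a3.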

How the results depend on the processing

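No NR4A gene passed the edgeR test in 6M_PoW against 6M_UT or in 6M_POW_LD against 6M_PoW under any alternative run. Nr4a2 in 6M_POW_LD against 6M_UT, not called in the fit reported (1.34), was called with DESeq2 (1.34) and with no filter on low counts (1.33), and ran from 0.95 to 1.52 when 1 library was left out. With 1 library left out, 6M_PoW against 6M_UT gave -0.42 to 0.44 for Nr4a1, 0.52 to 1.15 for Nr4a2 and -1.12 to 0.61 for Nr4a3. The sign of Nr4a1 turned without 6M_UT replicate 2 (0.44) or 6M_PoW replicate 3 (0.19). 6M_POW_LD against 6M_UT gave 0.02 to 0.89 for Nr4a1 and -0.73 to 0.66 for Nr4a3. 6M_POW_LD against 6M_PoW gave 0.11 to 0.68, 0.11 to 0.82 and -0.22 to 0.76 for Nr4a1, Nr4a2 and Nr4a3. 9M_PoW+DT against 9M_UT gave -0.29 to 0.10, -3.29 to -2.44 and -2.03 to 0.17 for the same genes. With the LD libraries pooled with 6M_PoW, the log2 fold change of Nr4a1 in 6M_PoW against 6M_UT was 0.0858 and that of Nr4a2 1.11; pooled with 6M_UT, Nr4a2 was 0.02. With the 9-month groups exchanged, Nr4a2 was 2.70 and Nr4a3 0.98. Genes called in 6M_PoW against 6M_UT numbered 0 in the fit reported, 112 with DESeq2, 8 with no filter, 4 with the 2 groups alone, 29 with the LD libraries pooled with 6M_PoW and 0 to 10 with 1 library left out. In 6M_POW_LD against 6M_UT they numbered 757, and 1164 with DESeq2, 387 with the 2 groups alone and 288 to 827 with 1 library left out. In 6M_POW_LD against 6M_PoW they numbered 365, and 661 with DESeq2 and 157 to 428 with 1 library left out. In 9M_PoW+DT against 9M_UT they numbered 3, and 28 with DESeq2, 18 with the 2 groups alone and 1 to 6 with 1 library left out. The cause of these differences was not tested. Same-numbered libraries of 6M_PoW and 6M_UT correlated at -0.058 to 0.090 in their deviations from the group means. Those of 9M_UT and 9M_PoW+DT correlated at -0.083 to 0.150. With 3 correlations per pair of groups, these values are too few to show whether the replicate numbers pair the samples. With the replicate number as a block, 1 gene was called in 6M_PoW against 6M_UT, and Nr4a1, Nr4a2 and Nr4a3 had -0.09, 0.80 and -0.11. In 9M_PoW+DT against 9M_UT the block gave -0.17, -2.79 and -1.16. Rerunning the list counts and named genes under the same alternatives, and the correlations without 6M_UT replicate 2, was chosen after seeing the data. The 12 to 142 counts of Nr4a2 per library and 3 libraries per group limit what can be told apart.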
